A study of Rattus norvegicus with 28 samples.

Results

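Txnip, the arrestin-domain genes Arrdc3 and Arrdc4, and the genes of the glucose-sensing transcription factor ChREBP (Mlxipl) and its partner Mlx were followed through the cAMP response of INS-1 cells. These 5 genes are the rows of the TPM table (transcript abundance scaled to transcript length and library size) that carry those symbols, out of 17455 symbols, and each had 1 transcript in the table. They were selected on earlier results of these data, in which Txnip was among the largest falls of WT cells after 16 h of exendin-4, and by their known place in the same pathway. INS-1 is a rat insulinoma line that is used as a model of the pancreatic beta cell. The cells were WT or carried Med14 S983A, a CRISPR knock-in that replaces the serine of a Mediator scaffold subunit that protein kinase A phosphorylates with alanine. RNA-seq was done on 2 libraries in each of 14 groups: both genotypes without agonist (CON), or treated for 1, 8 or 16 h with Ex-4 (exendin-4, a GLP-1 receptor agonist, 10 nM) or FSK (forskolin, which activates adenylyl cyclase directly, 10 µM). Both genotypes were grown in RPMI-1640 with serum and were moved to serum-free medium before the agonist was added. No group had a second CON matched to its time point, so treatments of a genotype share the same 2 CON libraries. The study made its knock-in lines independently of each other, and the labels do not say which line each library came from. The methods speak of biological replicates, but neither they nor the labels say whether libraries of a group came from separate cultures, so p-values measure the spread between these libraries, which may be technical.

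Txnip encodes an alpha-arrestin that binds and inhibits thioredoxin and promotes the removal of glucose transporters from the cell surface. In beta cells its transcription rises with glucose through ChREBP or the related factor MondoA (Mlxip), each bound to DNA as a dimer with Mlx, and high TXNIP protein is known to favour beta cell death. ARRDC3 and ARRDC4 are alpha-arrestins that recruit ubiquitin ligases of the NEDD4 family to membrane proteins, and Arrdc4 is a further known target of the ChREBP/MondoA-MLX dimers. Incretin hormones and cAMP are known to lower TXNIP in beta cells.

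The promoter windows of Arrdc4 and Mlx are shown because each holds the E-box core CACGTG, the sequence that MLX dimers recognise in carbohydrate response elements, while their transcripts behaved differently. They are RefSeq windows of the GRCr8 assembly and cover the 250 bases before the annotated start, 5′ to 3′ on the gene's strand, with CACGTG in capitals.
Arrdc4 (chr1:131793426-131793675, minus strand): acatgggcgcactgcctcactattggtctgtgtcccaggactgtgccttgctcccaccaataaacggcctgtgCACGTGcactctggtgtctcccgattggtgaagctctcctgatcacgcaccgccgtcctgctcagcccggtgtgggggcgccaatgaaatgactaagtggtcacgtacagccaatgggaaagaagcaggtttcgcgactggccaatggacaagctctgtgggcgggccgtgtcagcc
Mlx (chr10:86519636-86519885, plus strand): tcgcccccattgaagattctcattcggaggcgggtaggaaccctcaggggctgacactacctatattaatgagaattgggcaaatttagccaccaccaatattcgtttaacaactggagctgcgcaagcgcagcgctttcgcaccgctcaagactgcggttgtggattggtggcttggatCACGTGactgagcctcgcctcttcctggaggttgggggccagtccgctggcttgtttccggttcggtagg

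The E-box lies 177 to 172 bases before the start of Arrdc4 and 70 to 65 bases before that of Mlx. On either strand CACGTG was found in 5.80% of 27457 promoter windows of the same length. The windows of Arrdc3 and Mlxipl did not hold it, and none of the 4 windows held the full carbohydrate response element consensus, the CRE TGACGTCA or its half-site TGACG, which occurred in 0.0692%, 1.70% and 18.96% of all windows. Mlxipl had 2 promoter entries and only the first was searched, so its result covers that window alone. The half-site is part of the full CRE, and the E-box letters can be part of a carbohydrate response element. The CCAAT box occurred 6 times before Arrdc4, 3 times before Mlx, 2 times before Mlxipl and once before Arrdc3, counting both strands, and in 34.3% of all windows at least once. The window of Txnip was not analysed here.

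In the rn6 coordinates of the deposited table Txnip (NM_001008767) lies at chr2:198683168-198686968 on the plus strand, with 2727 exonic bases. Arrdc3 (NM_001007797) lies at chr2:8733167-8742871 on the plus strand, with 1230 exonic bases. Arrdc4 (NM_001047853) is at chr1:129767227-129776276 on the minus strand, with 930 exonic bases. Mlxipl (NM_133552) is at chr12:24590645-24619639 on the minus strand, with 2878 exonic bases, and Mlx (NM_001034112) at chr10:88997433-89002152 on the plus strand, with 1880. All 5 averaged 1 TPM or more over the libraries, as did 10275 genes, and their lowest library still held 150 fragments for Txnip, 144 for Arrdc3, 299 for Arrdc4, 3438 for Mlxipl and 6537 for Mlx.

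The libraries held 42183630 to 91794163 fragments, and the highest, Med14 S983A 8hFSK replicate 2, stood above the next at 56755944. The 7 beta cell markers were present in every library, with Ins1 at 33716 to 67834 TPM. Ins2 was 2938 ± 75.1 TPM in WT CON and 35068 ± 3462 TPM in Med14 S983A CON, and 1117 ± 52.0 and 6721 ± 3.68 TPM after 16 h of FSK (SD, n = 2). Of the markers of other islet cells, Sst, Ppy and Ghrl stayed under 1 TPM, whereas Gcg, the glucagon gene, was 167 ± 2.17 TPM in WT CON and 6.32 ± 0.328 TPM in Med14 S983A CON (SD, n = 2) and 956 ± 13.4 and 44.5 ± 1.49 TPM after 16 h of Ex-4. It was 785 ± 33.6 and 107 ± 8.13 TPM after 16 h of FSK. The 9 exocrine, immune, fibroblast and endothelial markers averaged under 1 TPM. The part of these differences between the lines in the results below was not tested, and transcript levels cannot check a change of a single residue in Med14.

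Levels of the 5 genes spanned very different ranges over the 28 libraries. Txnip ran from 1.92 to 329 TPM, Arrdc4 from 10.9 to 197 TPM and Mlxipl from 38.7 to 293 TPM, while Arrdc3 stayed between 4.39 and 18.5 TPM and Mlx between 128 and 207 TPM. TPM is scaled to transcript length, so these levels may be compared between genes as far as the listed exon lengths are complete. Their completeness was not checked. In bulk RNA a lower level can come from fewer expressing cells or from less RNA per cell, and these cannot be told apart here.

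A gene was called changed when its adjusted p was below 0.05 and its fold exceeded 1.5 in limma on log2(TPM + 1), with Benjamini-Hochberg adjustment over all 10275 genes. For Txnip the 16 h Ex-4 change in WT was known from earlier results of these data when the genes were chosen. It and the 2 comparisons built on it are described without a test. The other Txnip comparisons that involve WT CON were tested. They reuse its 2 libraries, so their p-values and the counts that include them are not free of that selection. Of the 59 tested differences from CON, 36 were called lower and 0 higher. By edgeR and by DESeq2 on recovered fragments the corresponding counts were 35 lower and 0 higher each. At an unadjusted p under 0.05 limma placed 3 above CON, all of them Mlx. By that measure edgeR placed 7 above CON and DESeq2 8, with 1 of Arrdc3 in each and the others Mlx. DESeq2 with ERCC size factors placed 5 above CON, 2 of Arrdc3 and 3 of Mlx.

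In WT cells 2 of the 5 genes were called lower after 1 h of Ex-4, where 1.12% of all genes were lower and 1.75% higher. After 8 h of Ex-4 it was 4 of 5, against 5.99% of all genes lower and 3.61% higher, and after 16 h it was 3 of the 4 tested, against 8.28% and 3.53%. With FSK the numbers were 2 of 5 at 1 h (4.94% of all genes lower, 2.53% higher), 4 of 5 at 8 h (34.8% and 8.77%) and 3 of 5 at 16 h (24.1% and 10.3%). Ex-4 gave 2, 3 and 3 of 5 called lower at 1, 8 and 16 h in Med14 S983A cells, where 1%, 3.09% and 7.15% of all genes were lower and 2.03%, 3.21% and 4.73% higher. FSK gave 3, 4 and 3 of 5 at those times, against 7.2%, 34.5% and 21.1% of all genes lower and 3.19%, 11.6% and 12.2% higher. The background share is thus large at 8 and 16 h of FSK, and the median gene also fell in TPM at those times.

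**Figure D1:**
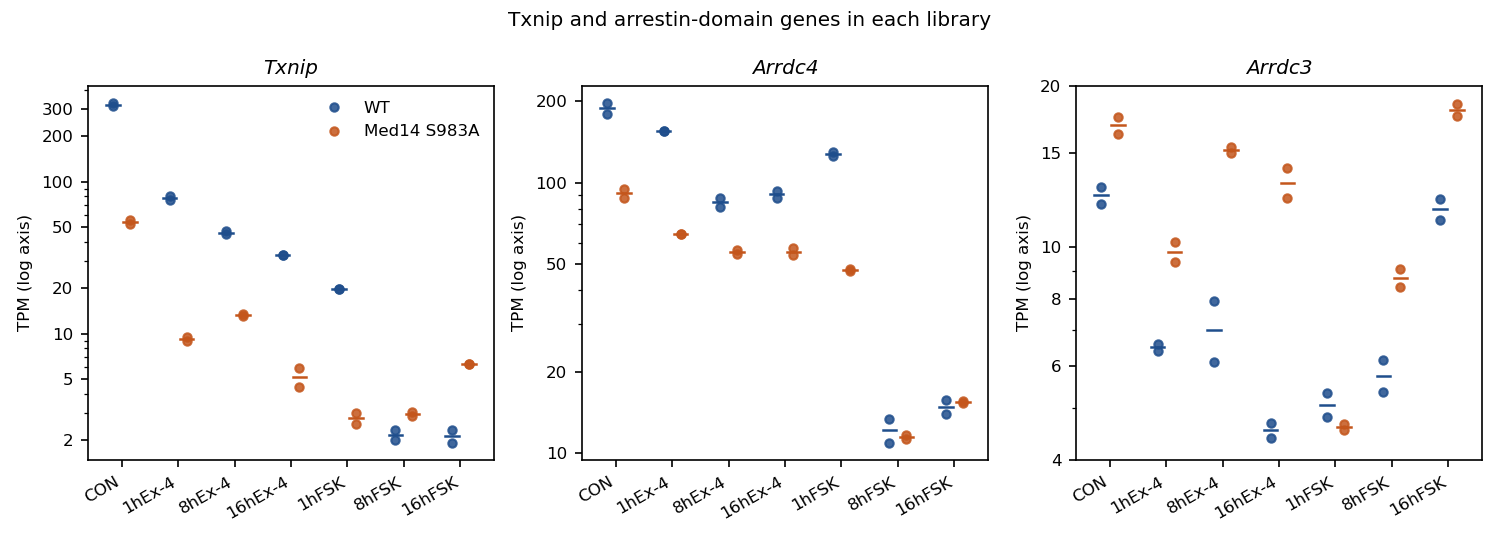
TPM of Txnip, Arrdc4 and Arrdc3 in each library on log axes, by treatment. Points are libraries (2 per group), bars are group means, blue is WT and orange Med14 S983A. Txnip is highest in WT CON, at 312 and 329 TPM, and near 2 TPM in WT cells after 8 or 16 h of FSK.

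Txnip fell under both agonists in both genotypes. WT CON libraries held 329 and 312 TPM, 1 h of Ex-4 left 80.8 and 75.4 TPM, 8 h left 47.3 and 45.0 TPM and 16 h left 33.1 and 32.8 TPM. The groups did not overlap, and each later time was lower than the one before it. The level was 4.1-fold lower at 1 h (log2 difference -2.02 ± 0.08 (SE), adjusted p = 5.0e-16), 6.95-fold lower at 8 h (-2.77 ± 0.08, adjusted p = 1.6e-18) and 9.73-fold lower at 16 h, the value described without a test (-3.24 ± 0.08).

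FSK took Txnip lower still in WT cells. It stood at 19.7 and 19.5 TPM after 1 h, 2.32 and 1.99 TPM after 8 h and 1.92 and 2.33 TPM after 16 h. The 8 and 16 h groups overlapped each other and lay below all other groups. Against CON, Txnip was 16.3-fold lower at 1 h (log2 difference -3.96 ± 0.08, adjusted p = 1.0e-22), 149-fold at 8 h (-6.67 ± 0.08, adjusted p = 4.4e-27) and 151-fold at 16 h (-6.69 ± 0.08, adjusted p = 4.6e-27). The log2 values are on the log2(TPM + 1) scale, which understates changes that end near 2 TPM. The median of all genes moved by -0.34 at 8 h and -0.20 at 16 h of FSK on that scale.

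Med14 S983A cells began from a lower level, with 55.9 and 52.9 TPM of Txnip at CON. Ex-4 left 8.95 and 9.45 TPM at 1 h, 13.5 and 13.1 TPM at 8 h and 5.93 and 4.49 TPM at 16 h. FSK left 3.02 and 2.55 TPM at 1 h, 3.04 and 2.88 TPM at 8 h and 6.32 and 6.34 TPM at 16 h. All 6 treated groups lay below CON without overlap, with falls from 4.10-fold (8 h of Ex-4, log2 difference -1.96 ± 0.08, adjusted p = 1.3e-15) to 19.5-fold (1 h of FSK, -3.87 ± 0.08, adjusted p = 1.4e-22). In contrast to WT cells, the lowest FSK mean was at 1 h and the 16 h FSK mean, 6.33 TPM, was higher than those at 1 and 8 h, 2.79 and 2.96 TPM.

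Over the 14 groups Txnip was highest in WT CON, at 321 TPM. It was followed by WT 1hEx-4 (78.1), Med14 S983A CON (54.4), WT 8hEx-4 (46.1), WT 16hEx-4 (32.9) and WT 1hFSK (19.6). Then came Med14 S983A 8hEx-4 (13.3), 1hEx-4 (9.20), 16hFSK (6.33), 16hEx-4 (5.21), 8hFSK (2.96) and 1hFSK (2.79), and last WT 8hFSK (2.16) and 16hFSK (2.13). Libraries of neighbours in this order overlapped in 2 of 13 pairs, which were Med14 S983A 8hFSK with 1hFSK and WT 8hFSK with 16hFSK. All other neighbours were apart, though with 2 libraries each.

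Arrdc4 fell less than Txnip at 1 h, and at 8 and 16 h it fell much further with FSK than with Ex-4. In WT cells CON libraries held 197 and 180 TPM, and 1 h of Ex-4 left 155 TPM in both, a difference that did not reach 1.5-fold (log2 difference -0.28 ± 0.07, adjusted p = 0.00299). At 8 h of Ex-4 the libraries held 87.9 and 81.2 TPM and at 16 h 87.9 and 93.3 TPM. These were called, at 2.23-fold lower (-1.15 ± 0.07, adjusted p = 4.0e-13) and 2.08-fold lower (-1.05 ± 0.07, adjusted p = 1.6e-12).

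After 1 h of FSK Arrdc4 was at 129 and 126 TPM in WT cells, a log2 difference of -0.56 ± 0.07 that missed the fold minimum (adjusted p = 1.9e-07) and passed it without WT CON replicate 2 (-0.62). At 8 h it was at 13.4 and 10.9 TPM and at 16 h at 13.9 and 15.8 TPM, far below the libraries of the other 5 WT groups. The falls were 15.5-fold (-3.85 ± 0.07, adjusted p = 1.5e-24) and 12.7-fold (-3.58 ± 0.07, adjusted p = 5.6e-24).

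The Med14 S983A libraries held 94.5 and 88.0 TPM of Arrdc4 at CON. Ex-4 left 64.8 and 64.7 TPM at 1 h, 56.2 and 54.5 TPM at 8 h and 57.4 and 53.8 TPM at 16 h, and the later times passed the threshold at 1.65-fold and 1.64-fold lower (adjusted p = 3.2e-09 and 2.0e-09). The 1 h Ex-4 difference, -0.49 ± 0.07 (adjusted p = 4.0e-06), did not reach the fold minimum. FSK left 47.1 and 47.9 TPM at 1 h, 11.7 and 11.3 TPM at 8 h and 15.6 and 15.3 TPM at 16 h, falls of 1.92-, 7.94- and 5.90-fold (adjusted p = 1.6e-11, 1.9e-22 and 6.6e-21). After 8 or 16 h of FSK the libraries of the genotypes overlapped at each time, although they stood apart at CON. In the order of all 14 group means 4 of 13 neighbouring pairs overlapped.

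Arrdc3 showed a different time course, with an early fall and, under FSK, levels near CON at 16 h. In WT cells it was at 12.9 and 12.1 TPM at CON, at 6.60 and 6.38 TPM after 1 h of Ex-4, at 6.09 and 7.91 TPM after 8 h and at 4.39 and 4.70 TPM after 16 h. All 3 times were called, at 1.92-fold (log2 difference -0.85 ± 0.09, adjusted p = 5.8e-08), 1.78-fold (-0.76 ± 0.09, adjusted p = 8.2e-08) and 2.75-fold lower (-1.28 ± 0.09, adjusted p = 6.2e-12). FSK left 4.81 and 5.33 TPM at 1 h and 6.14 and 5.35 TPM at 8 h, 2.46- and 2.17-fold lower (adjusted p = 7.1e-11 and 1.2e-10). At 16 h of FSK the libraries held 11.2 and 12.3 TPM and overlapped those of CON. That log2 difference was -0.08, with a 95% confidence interval from -0.26 to 0.10 (adjusted p = 0.415), and turned positive when libraries were centred on their median (0.16) or scaled on the spike-ins (0.24).

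Arrdc3 was at 17.5 and 16.3 TPM in Med14 S983A CON. It was called lower after 1 h of Ex-4, at 10.2 and 9.38 TPM (1.73-fold, adjusted p = 6.5e-07), and not after 8 h, at 15.4 and 14.99 TPM (-0.14, 95% confidence interval -0.33 to 0.04, adjusted p = 0.182). At 16 h of Ex-4 it was at 14.03 and 12.3 TPM, a difference of -0.34 ± 0.09 that passed the p threshold but not the fold minimum (adjusted p = 0.00196). FSK took it to 4.67 and 4.55 TPM at 1 h, 3.67-fold below CON (-1.67 ± 0.09, adjusted p = 3.3e-14), and to 9.09 and 8.42 TPM at 8 h (-0.88 ± 0.09, adjusted p = 1.4e-09, and under the fold minimum at -0.54 when median-centred). At 16 h of FSK it was at 18.5 and 17.6 TPM, the highest mean of all 14 groups and without overlap with CON, but not called (0.09 ± 0.09, adjusted p = 0.37).

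**Figure D2:**
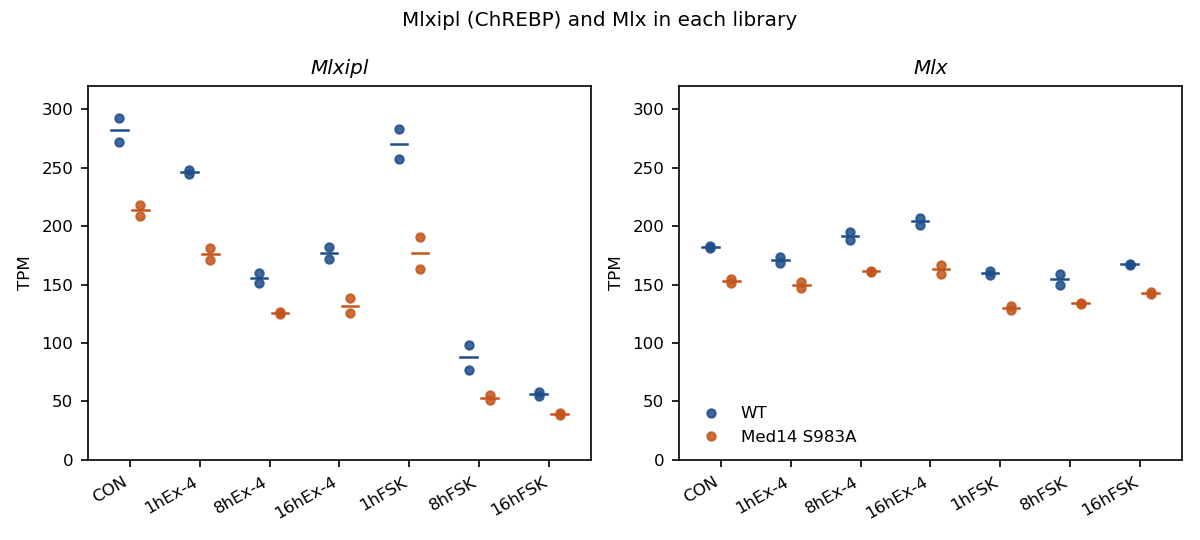
TPM of Mlxipl and Mlx in each library, by treatment, on axes from 0. Points are libraries (2 per group), bars are group means, blue is WT and orange Med14 S983A. Mlxipl drops from 282 TPM in WT CON to 56.4 TPM after 16 h of FSK, while Mlx stays between 128 and 207 TPM.

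Mlxipl, the gene of ChREBP itself, changed little at 1 h and fell at 8 and 16 h. In WT cells CON libraries held 293 and 272 TPM, 1 h of Ex-4 left 248 and 244 TPM (log2 difference -0.20 ± 0.08, adjusted p = 0.079) and 1 h of FSK left 283 and 258 TPM, which overlapped CON (-0.06 ± 0.08, adjusted p = 0.558). Ex-4 then took it to 160 and 151 TPM at 8 h and 172 and 182 TPM at 16 h. The 8 h fall was 1.82-fold (-0.86 ± 0.08, adjusted p = 2.4e-09). The 16 h fall was 1.60-fold (-0.67 ± 0.08, adjusted p = 1.0e-07) and did not reach 1.5-fold after median-centring (-0.48), spike-in scaling (-0.39), in edgeR (-0.52) or in DESeq2 (-0.50). FSK took Mlxipl lower, to 98.5 and 76.9 TPM at 8 h and 54.6 and 58.3 TPM at 16 h, 3.22- and 5.01-fold below CON (adjusted p = 5.4e-16 and 1.3e-18).

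The Med14 S983A cells followed the same order. Mlxipl was at 209 and 218 TPM at CON, at 181 and 171 TPM after 1 h of Ex-4 and at 163 and 191 TPM after 1 h of FSK, neither of them called. Ex-4 left 125 and 127 TPM at 8 h and 139 and 126 TPM at 16 h, 1.70- and 1.62-fold lower (adjusted p = 2.6e-08 and 7.1e-08). FSK left 55.3 and 50.8 TPM at 8 h and 38.7 and 40.4 TPM at 16 h, 4.02- and 5.40-fold lower (adjusted p = 1.5e-17 and 5.7e-19).

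Mlx, the dimer partner, was not called in any of the 12 treatments. In WT cells it was at 183 and 182 TPM at CON, 201 and 207 TPM after 16 h of Ex-4 and 167 and 168 TPM after 16 h of FSK. The same Med14 S983A groups held 152 and 155, 159 and 167, and 142 and 144 TPM. The log2 differences from CON ran from -0.24 (WT 8hFSK and Med14 S983A 1hFSK) to 0.16 (WT 16hEx-4, adjusted p = 2.9e-04). At an unadjusted p under 0.05 limma passed 10 of the 12 differences, 3 of them higher than CON, while edgeR passed 7, 6 of them higher, so the direction of these small differences depends on the scale. The calls with edgeR and with DESeq2 were also 0 of 12.

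**Figure D3:**
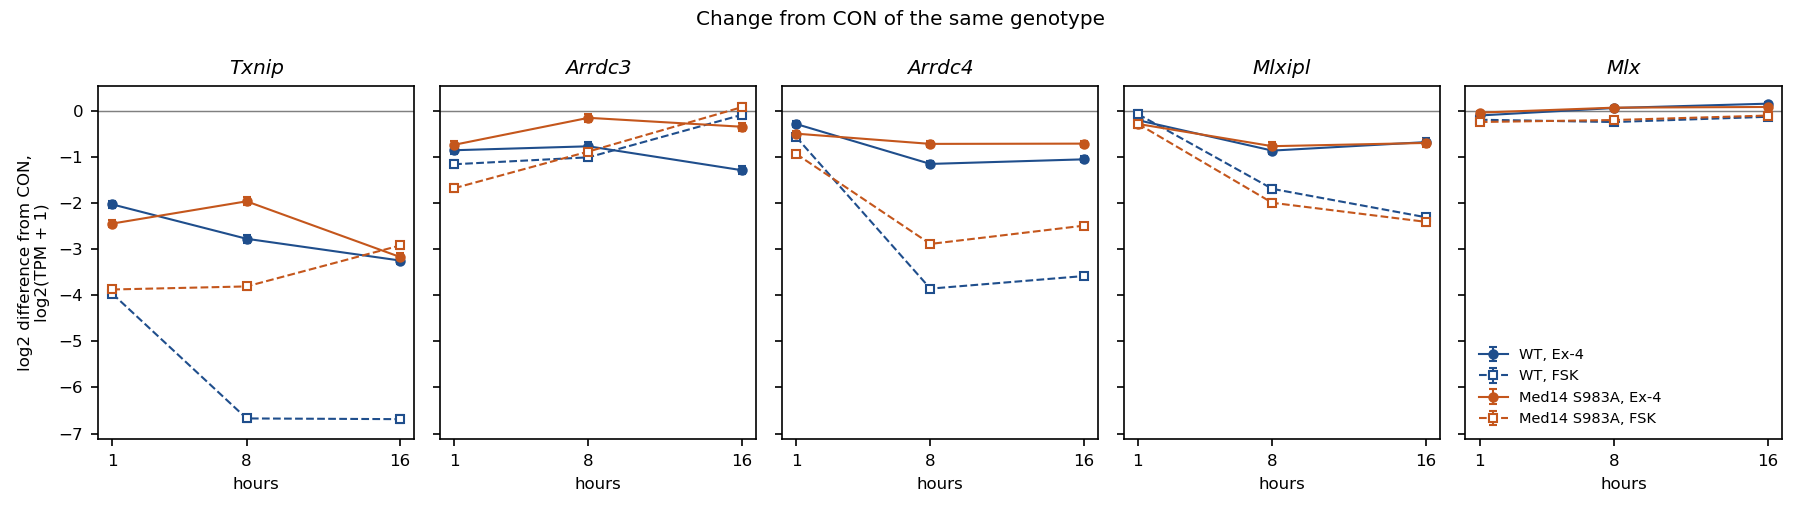
Log2 difference from CON of the same genotype against hours of treatment for the 5 genes, on the log2(TPM + 1) scale. Points are estimates and bars their SE (many are smaller than the points), filled circles are Ex-4, open squares FSK, blue WT and orange Med14 S983A. Txnip reaches -6.69 in WT cells after 16 h of FSK, Arrdc3 is back near 0 at that time, and Mlx stays between -0.24 and 0.16.

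Before any agonist the genotypes already differed in 2 of the 5 genes, where 11.1% of all genes were called lower in Med14 S983A CON and 8.29% higher. Txnip was 5.89-fold lower, 54.4 ± 2.09 against 321 ± 11.7 TPM (SD, n = 2; log2 difference -2.54 ± 0.08, adjusted p = 8.1e-19). Arrdc4 was 2.06-fold lower, 91.3 ± 4.60 against 188 ± 12.05 TPM (-1.04 ± 0.07, adjusted p = 6.4e-13). The libraries of the genotypes did not overlap for either gene.

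The other 3 differences at CON were below 1.5-fold though each passed the p threshold of limma. Arrdc3 was higher in Med14 S983A (0.41 ± 0.09, adjusted p = 2.7e-04), and Mlxipl (-0.40 ± 0.08, adjusted p = 1.2e-04) and Mlx (-0.25 ± 0.04, adjusted p = 9.5e-07) were lower. With ERCC size factors in DESeq2 the Arrdc3 difference was 0.64 and called, and those of Mlxipl and Mlx did not reach an unadjusted p under 0.05. The knock-in cells were sorted as single cells and grown into clones, so effects of the mutation and of the clone cannot be told apart.

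Genes beside some of the members also differed at CON. Among the 25 tested genes on each side of Arrdc4 the median log2 difference was -0.23, and 14 of 50 were called lower and 0 higher by limma. Around Mlxipl the median was -0.22, with 16 of 50 lower and 0 higher. The 50 neighbours of Txnip had a median of -0.06, with 1 lower and 2 higher, and the median of all genes was -0.07. Of all genes 11.1% were called lower and 8.29% higher. With 10 genes on each side the median was -0.37 around Arrdc4 and -0.05 around Mlxipl. The median around Mlx was -0.07, and around Arrdc3, with 35 genes because it lies near the end of its chromosome, -0.08.

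**Figure D4:**
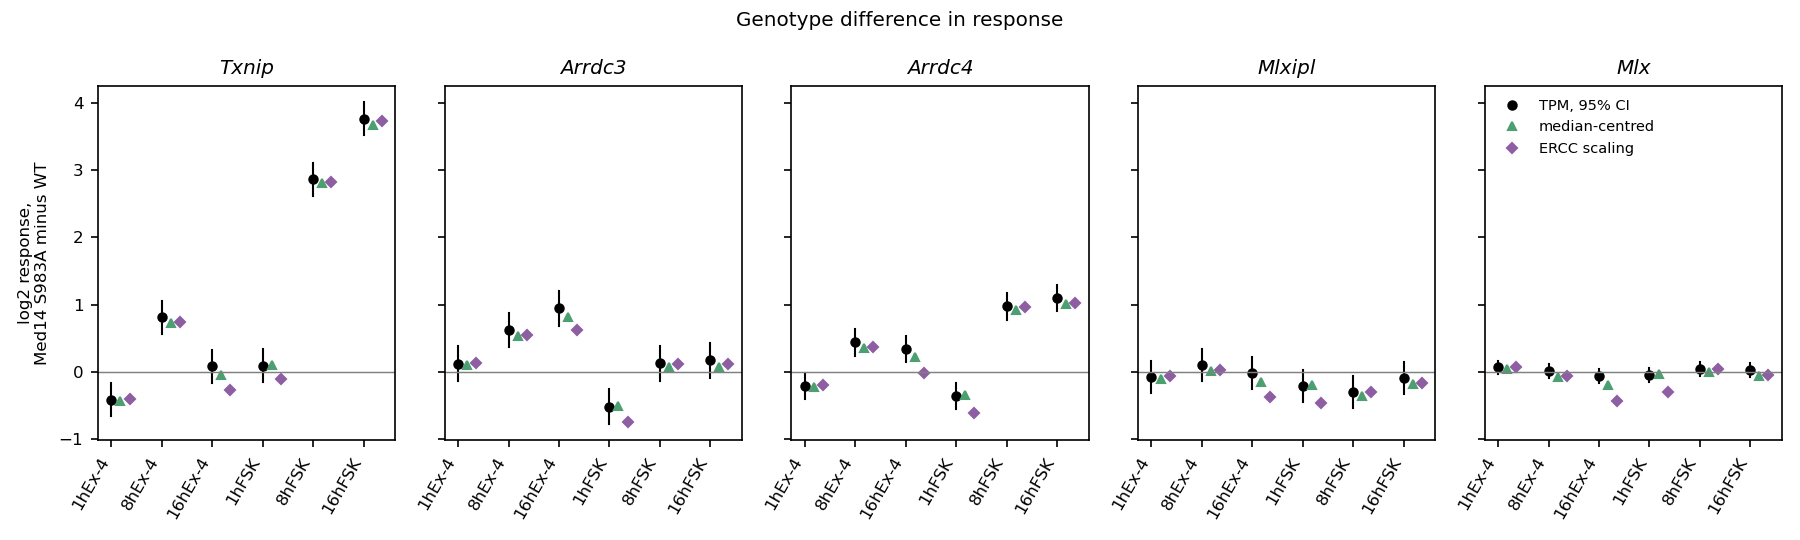
Genotype difference in response, which is the log2 change from CON in Med14 S983A minus that in WT, for the 5 genes under each treatment. Black points are values on the TPM scale with their 95% confidence interval, green triangles the same after centring each library on its median and violet diamonds after spike-in scaling. Txnip stands highest, at 2.87 after 8 h and 3.77 after 16 h of FSK.

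The response to agonist differed between genotypes in 7 of 29 tested cases, and in all 7 the log2 change was higher, that is the fall was smaller, in Med14 S983A. After 8 h of Ex-4 2 of 5 genes were called higher (1.98% of all genes higher, 0.798% lower), and after 16 h 1 of 4 (5.43% and 1.81%). After 8 h of FSK it was 2 of 5 (7.65% higher, 6.21% lower) and after 16 h of FSK 2 of 5 (10.6% and 6.4%). At 1 h none of the 5 genes was called with Ex-4 (0.341% of all genes higher, 0.331% lower) or FSK (0.876% and 0.769%) in limma, edgeR or DESeq2, and 2 of 5 had an unadjusted limma p under 0.05 with each agonist, all 4 of them lower in Med14 S983A. With ERCC size factors DESeq2 called 2 of the 1 h FSK differences, those of Arrdc3 and Arrdc4, as lower.

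Txnip differed most in its response to FSK. The 8 h fall was 149-fold in WT and 18.4-fold in Med14 S983A (log2 difference 2.87 ± 0.12, adjusted p = 9.6e-16), and the 16 h fall was 151-fold and 8.59-fold (3.77 ± 0.12, adjusted p = 4.8e-18). The CON level differed by 5.89-fold, so these differences in fold combine a lower starting level with end levels of 2.96 against 2.16 TPM at 8 h and 6.33 against 2.13 TPM at 16 h. After 8 h of Ex-4 the falls were 6.95- and 4.10-fold (0.81 ± 0.12, adjusted p = 2.5e-05), and the difference fell below 1.5-fold in DESeq2 with ERCC size factors (0.58). After 16 h of Ex-4 the falls were alike in size, 9.73- and 10.4-fold, with a log2 difference of 0.08 and a 95% confidence interval from -0.17 to 0.32, described without a test. At 1 h the Txnip differences, -0.42 ± 0.12 with Ex-4 (adjusted p = 0.0944) and 0.09 ± 0.12 with FSK (adjusted p = 0.793), were not called.

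Arrdc4 also had larger FSK responses in WT cells at 8 and 16 h. The difference was 0.97 ± 0.09 at 8 h (adjusted p = 6.5e-09) and 1.09 ± 0.09 at 16 h (adjusted p = 5.4e-10), again from CON levels that differed and end levels that overlapped. At 1 h of FSK the difference lay the other way, -0.37 ± 0.09 (adjusted p = 0.0171), under the fold minimum on the TPM scale and past it with spike-in scaling (-0.62). With Ex-4 the 8 h difference, 0.44 ± 0.09 (adjusted p = 0.00203), was under the fold minimum.

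For Arrdc3 the response differed with Ex-4 instead. WT cells fell to 6.999 TPM at 8 h and 4.55 TPM at 16 h while Med14 S983A cells were at 15.2 and 13.2 TPM. The log2 differences were 0.62 ± 0.13 (adjusted p = 0.00104) and 0.94 ± 0.13 (adjusted p = 1.7e-06). The 8 h call ended after median-centring (0.53), after spike-in scaling (0.55), in DESeq2 with ERCC size factors (0.50) and without WT CON replicate 1 (0.57), WT 8hEx-4 replicate 1 (0.45) or Med14 S983A CON replicate 2 (0.57). After 1 h of FSK the difference was -0.52 ± 0.13 and below the fold minimum (adjusted p = 0.0105). For Mlxipl and Mlx limma, edgeR and DESeq2 called 0 of 6 differences each, and 1 of 6 and 0 of 6 had an unadjusted limma p under 0.05. The Mlxipl difference with that p was -0.30 after 8 h of FSK, with a 95% confidence interval from -0.54 to -0.07 (adjusted p = 0.0282). It was -0.13 without WT 8hFSK replicate 1 and -0.48 without WT 8hFSK replicate 2.

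Comparing the agonists directly, 14 of 29 tested differences were called higher with Ex-4 than with FSK and 1 lower. DESeq2 with ERCC size factors called 15 higher and 3 lower. In WT cells 1 of 5 genes was higher with Ex-4 at 1 h (0.652% of all genes higher, 1.14% lower) and 3 of 5 at 8 h (23.3% and 4.77%). At 16 h 2 of 4 were higher and 1 lower (11.4% and 7.29% of all genes). For Med14 S983A it was 2 of 5 higher at 1 h (1.45% higher, 1.58% lower), 4 of 5 at 8 h (29.8% and 6.72%) and 2 of 5 at 16 h (10.6% and 5.76%). Ex-4 is a peptide that acts through the GLP-1 receptor and FSK a diterpene that acts on adenylyl cyclase, and each was given at 1 concentration, so the comparison holds for these doses.

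Txnip was higher with Ex-4 than with FSK by 3.98-fold at 1 h (log2 difference 1.94 ± 0.08, adjusted p = 7.3e-15) and 21.4-fold at 8 h (3.90 ± 0.08, adjusted p = 7.6e-22) in WT cells. With the mutation the ratio was 3.30 at 1 h (adjusted p = 1.2e-12) and 4.48 at 8 h (adjusted p = 2.9e-16). At 16 h it was 15.5 in WT cells, described without a test, whereas in Med14 S983A cells Txnip was 5.21 TPM with Ex-4 and 6.33 TPM with FSK, a difference below the fold minimum (-0.25 ± 0.08, adjusted p = 0.0116). That difference was called in DESeq2 with ERCC size factors (-0.62), and was -0.082 without Med14 S983A 16hEx-4 replicate 2 and -0.42 without replicate 1. Arrdc4 was 6.97- and 6.11-fold higher with Ex-4 at 8 and 16 h in WT cells (adjusted p = 7.9e-21 and 2.0e-20) and 4.81- and 3.597-fold in Med14 S983A cells (adjusted p = 1.5e-19 and 2.2e-17). Mlxipl was 1.77- and 3.14-fold higher in WT (adjusted p = 1.2e-09 and 3.9e-15) and 2.37- and 3.34-fold higher in Med14 S983A cells (adjusted p = 4.7e-13 and 1.7e-15), and the 8 h WT call was lost after median-centring (0.56) and in DESeq2 (0.58).

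Arrdc3 went the other way at 16 h. In WT cells it was at 4.39 and 4.70 TPM with Ex-4 and 11.2 and 12.3 TPM with FSK, 2.59-fold lower with Ex-4 (-1.20 ± 0.09, adjusted p = 9.9e-12). In Med14 S983A cells it was higher with Ex-4 at 1 h (0.94 ± 0.09, adjusted p = 8.4e-09) and 8 h (0.73 ± 0.09, adjusted p = 4.4e-08), the latter below the fold minimum after median-centring (0.43), in edgeR (0.54) and in DESeq2 (0.51). At 16 h it was lower with Ex-4 by 0.43 ± 0.09 on the log2 scale, which passed the fold minimum after spike-in scaling (-0.77).

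Among other genes of these pathways both small and large changes were found. Of the remaining alpha-arrestins, Arrdc1, which recruits NEDD4 ligases to membrane vesicles, was called lower in 1 of 12 treatments and Arrdc2 in 7 of 12, and neither was called higher, while Arrdc5 was listed at 0 to 0.03 TPM. Arrdc2 was at 4.61 ± 0.419 TPM in WT CON and 2.14 ± 0.184 TPM after 1 h of FSK (SD, n = 2; log2 difference -0.84 ± 0.09, adjusted p = 2.3e-08), and at 7.86 ± 0.650 and 3.06 ± 0.136 TPM in Med14 S983A cells (-1.13 ± 0.09, adjusted p = 7.5e-11). It was higher in Med14 S983A than in WT cells at CON (0.66 ± 0.09, adjusted p = 4.2e-07). All 6 FSK groups were among its 7 calls, and the one at 16 h in WT (-0.64 ± 0.09) was lost with spike-in scaling (-0.38). Arrdc1 differed from CON after 16 h of Ex-4 by 0.02 ± 0.04 in WT and by -0.41 ± 0.04 in Med14 S983A cells, neither of them called.

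The ligases and redox partners of these proteins showed few calls with Ex-4. None of the 8 measured NEDD4-family ligases and none of the 11 genes of the thioredoxin system was called after 16 h of Ex-4 in WT cells. Of all genes 8.28% were lower and 3.53% higher there, so 0 calls in lists of this size are near that share. The lists' median log2 changes were -0.15 and -0.14 and that of all genes -0.16. After 16 h of FSK in WT cells 1 of 8 ligases was lower, and of the thioredoxin genes 1 was higher and 2 lower. The share of all genes was 24.1% lower and 10.3% higher. The Med14 S983A cells had 0 of 8 and 0 of 11 called after 16 h of Ex-4 (7.15% of all genes lower, 4.73% higher). After 16 h of FSK they had 2 ligases lower, 4 thioredoxin genes higher and 2 lower (21.1% of all genes lower, 12.2% higher).

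In the network of MLX- and MAX-binding factors 3 of 9 measured genes other than the members were called lower and 0 higher after 16 h of Ex-4 in WT cells. Their median log2 change was -0.47, and that of all genes -0.16. The median was -0.28 after median-centring and -0.20 with spike-in scaling. After 16 h of FSK 1 of the 9 was higher and 6 lower in each genotype, against 10.3% and 24.1% of all genes in WT and 12.2% and 21.1% in Med14 S983A. Mxd3, a repressor that pairs with MAX, went from 63.2 to 22.9 TPM after 16 h of Ex-4 in WT cells (-1.42 ± 0.08, adjusted p = 8.2e-14). With the same treatment it went from 44.3 to 15.9 TPM in Med14 S983A cells (-1.43 ± 0.08, adjusted p = 5.4e-14). Myc, the MAX-binding growth regulator, went from 69.9 to 38.0 TPM after 16 h of Ex-4 in WT cells (-0.87 ± 0.05, adjusted p = 8.3e-14). In Med14 S983A cells Ex-4 took it from 56.0 to 117 TPM at that time (1.05 ± 0.05, adjusted p = 1.3e-15). After 16 h of FSK Myc was at 37.2 TPM in WT and 147 TPM in Med14 S983A cells. In WT the Ex-4 call was lost in DESeq2 with ERCC size factors (-0.56), and the FSK call (-0.89) with spike-in scaling (-0.56) and in that DESeq2 fit (-0.53). The response of Myc differed between genotypes at 16 h by 1.91 ± 0.07 with Ex-4 (adjusted p = 2.6e-16) and 2.27 ± 0.07 with FSK (adjusted p = 1.4e-18). Mlxip and Mga were not analysed here.

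Of 19 measured genes on a list of known ChREBP targets, 2 were higher and 3 lower after 16 h of Ex-4 in WT cells, where 3.53% and 8.28% of all genes were. Their median was -0.09 on the TPM scale, 0.097 after median-centring and 0.18 with spike-in scaling, beside -0.16 on the TPM scale for all genes. In Med14 S983A 4 were higher and 0 lower, against 4.73% and 7.15% of all genes, with a median of 0.25. Pklr, liver-type pyruvate kinase and a classical ChREBP target, was at 222 ± 3.58 TPM at CON and 121 ± 3.36 TPM after 16 h of Ex-4 (SD, n = 2; -0.87 ± 0.04, adjusted p = 1.0e-14), and at 51.8 ± 0.621 TPM after 16 h of FSK (-2.08 ± 0.04, adjusted p = 3.0e-23). In Med14 S983A cells it was at 103 TPM at CON, lower than in WT (-1.10 ± 0.04, adjusted p = 1.7e-17), and at 84.0 TPM after 16 h of Ex-4 and 41.5 TPM after 16 h of FSK. Klf10, a transcriptional repressor induced by glucose, went from 79.4 to 43.1 TPM with Ex-4 (-0.86 ± 0.06, adjusted p = 2.0e-11) and to 19.8 TPM with FSK (-1.95 ± 0.06, adjusted p = 3.2e-19) in WT cells. The 16 h Ex-4 calls of Pklr (-0.55) and Klf10 (-0.56) in WT were lost in DESeq2 with ERCC size factors.

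Other genes of the same list rose. Scd2, a fatty acid desaturase that also responds to sterol factors, went from 686 to 1569 TPM after 16 h of Ex-4 in WT cells (1.19 ± 0.05, adjusted p = 3.1e-16). Khk, which phosphorylates fructose, went from 8.61 to 13.6 TPM (0.60 ± 0.07, adjusted p = 8.0e-08). In Med14 S983A cells Scd2 started higher, at 1759 TPM, and reached 2804 TPM (0.67 ± 0.05, adjusted p = 1.4e-11), a call lost with spike-in scaling (0.58) and in DESeq2 with ERCC size factors (0.57). After 16 h of FSK in WT cells 5 of the 19 genes were higher and 5 lower, where 10.3% and 24.1% of all genes were, so the share that was lower was near the background.

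Of the 3 measured glucose transporters on a further list 1 was higher and 1 lower after 16 h of Ex-4 in WT cells. Of all genes 3.53% were higher and 8.28% lower there. Slc2a1 (GLUT1), which TXNIP removes from the cell surface, rose from 33.5 to 56.5 TPM (0.74 ± 0.07, adjusted p = 4.2e-09). It reached 135 TPM after 16 h of FSK (1.98 ± 0.07, adjusted p = 3.8e-18). In Med14 S983A cells FSK took Slc2a1 from 54.2 to 185 TPM (1.75 ± 0.07, adjusted p = 5.1e-17). After 16 h of Ex-4 in these cells 0 of the 3 transporters were called higher and 1 lower, against 4.73% and 7.15% of all genes. Slc2a4 (GLUT4), low in these cells, went from 16.3 to 4.36 TPM after 16 h of Ex-4 in WT cells (-1.69 ± 0.11, adjusted p = 3.7e-12) and was 3.07 TPM in Med14 S983A CON.

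Across the 14 group means of log2(TPM + 1), Txnip varied most like Arrdc4 among the members (Pearson r = 0.85) and little like Arrdc3 (r = 0.07). Arrdc4 and Mlxipl had r = 0.93, and Txnip and Mlxipl 0.71. Among 7676 genes that averaged 10 TPM or more, Arrdc4 stood 105th and Mlxipl 901st in likeness to Txnip. Mlxipl stood 162nd in likeness to Arrdc4, so many other genes had values as high or higher. The groups share CON levels, agonists and genotypes, so these values are a description and carry no p.

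Among the genes most like Txnip were Eri1 (r = 0.95), an exoribonuclease, and Yeats2 (0.94), a subunit of a histone acetyltransferase complex. Their ranges were far smaller, as Eri1 went from 68.5 TPM in WT CON to 34.8 TPM in WT 16hFSK and Yeats2 from 28.2 to 16.8 TPM. With spike-in scaling Eri1 had rank 3 (r = 0.91) and Yeats2 rank 128 (r = 0.81). The most opposite were Insig1 (r = -0.94), Arl4a (-0.88) and Slc1a4 (-0.87). Insig1, which holds back the activation of sterol-regulated transcription factors, went from 67.8 TPM in WT CON to 278 TPM in WT 16hEx-4 and 454 TPM in WT 16hFSK.

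For the other members the nearest genes were Spryd4, Fbxw2 and Wdr83 for Arrdc3 (r = 0.95, 0.94 and 0.91), Cog1, Bcl9 and Mrps28 for Arrdc4 (0.99 each), Slc43a2, Fam117a and Klhdc3 for Mlxipl (0.99, 0.98 and 0.98) and Anks4b, Map3k12 and Aldh5a1 for Mlx (0.92, 0.91 and 0.91). With spike-in scaling Mrps28 had r = 0.65 and rank 1579, Fbxw2 r = 0.84 and rank 107, and Anks4b r = 0.84 and rank 270. Slc43a2, an amino acid transporter, went from 172 TPM in WT CON to 32.8 TPM in WT 16hFSK, a range like that of Mlxipl.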

How the data were processed

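RNA-seq of 28 INS-1 libraries was analysed from the processed tables, with group and replicate taken from the sample titles. Alignment by the authors was to rn6 plus the ERCC spike-in sequences (STAR 2.5.3a), and HOMER 4.11.1 gave the deposited TPM per transcript, which entered without rescaling. Their Length column, another deposited value, is the exon length and was used to recover fragments. The deposited counts are the authors' counts of the 92 ERCC sequences alone. The study's own calls used DESeq2 1.24.0 with ERCC size factors. Because ERCC went into equal amounts of total RNA, it sets a scale per amount of RNA and not per cell. It made up 0.671 to 1.03% of fragments.

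Log2(TPM + 1) was fitted with limma 3.58.1 (R 4.3.3), with a mean for each of 14 groups, 14 residual degrees of freedom and trend, for 10275 genes averaging 1 TPM or more. The 25 contrasts were two-sided, adjusted by Benjamini-Hochberg within a contrast, and called when adjusted p was below 0.05 and the fold exceeded 1.5. Whole fragments were recovered from TPM times length, scaled on the ERCC counts. Of 135800 low values 100% were whole within 0.05 reads, against 22.7% by chance. They were tested with edgeR 4.0.16 and DESeq2 1.42.0 as alternatives. On simulated data for 16 h of Ex-4 in WT, limma on 10275 genes recovered 96% of the genes changed 2-fold and 100% of those changed 3-fold. The changed genes were drawn from those with more fragments, and rises and falls were equal in number. The recovery therefore does not cover genes with few fragments or unequal numbers of rises and falls.

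The members, gene lists, comparisons and alternatives were chosen with earlier results of these data known. Named were the 5 members, per member the 3 genes with the highest correlation over group means (for Txnip also the 3 lowest), the other alpha-arrestins and, per list, the 2 largest rises and 2 largest falls among genes called after 16 h of Ex-4 in WT. One gene that this rule names is not reported here. Replicates differed by more than counting noise in each group (chi-square per degree of freedom 2.47 to 9.83). Promoter windows came from RefSeq on GRCr8, which is not the build of the TPM table, and matched 4 of 5 members.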

Additional observations from a re-analysis of the deposited data

Results flagged for a closer look

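Of the 29 tested genotype differences in response, 7 passed the test of the difference itself (limma, adjusted p under 0.05 and over 1.5-fold). For Txnip the log2 change from CON was higher in Med14 S983A than in WT by 0.81 after 8 h of Ex-4, by 2.87 after 8 h of FSK and by 3.77 after 16 h of FSK. For Arrdc4 it was higher by 0.97 after 8 h and 1.09 after 16 h of FSK. For Arrdc3 it was higher by 0.62 after 8 h and 0.94 after 16 h of Ex-4. Leaving out single libraries gave 2.79 to 2.94 and 3.67 to 3.87 for Txnip after 8 and 16 h of FSK, and 0.45 to 0.78 for Arrdc3 after 8 h of Ex-4. The share of ERCC fragments in these groups was 0.714 ± 0.0317% in WT 16hFSK and 0.693 ± 0.0314% in Med14 S983A 16hFSK, and 0.744 ± 0.0128% against 0.887 ± 0.0958% at 16hEx-4 (SD, n = 2). Scaled on the spike-ins, the Txnip difference after 16 h of FSK was 3.73 and the Arrdc3 difference after 16 h of Ex-4 was 0.62.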

How the results depend on the processing

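Of 60 called member differences all 60 kept their direction and call with a pseudocount of 0.1, without the filter on low values, with a mean of at least 5 TPM, with only the libraries of the contrast and with replicate number as a block. Calls lost were 5 with median-centring, 2 with spike-in scaling, 2 with edgeR, 3 with DESeq2, 3 with DESeq2 on ERCC size factors and 3 over the fits without 1 library, and none of the 60 changed sign. Without a fold minimum 33 of the 62 member differences that were not called became calls. The calls rose from 2 to 5 for genotype at CON, from 7 to 12 for the genotype difference in response and from 15 to 26 for Ex-4 against FSK. The remaining new calls were differences from CON. They included Mlx above CON after 16 h of Ex-4, by 0.16 in WT and 0.09 in Med14 S983A. Leaving out 1 library gave 36 to 37, 2 to 2, 6 to 7 and 15 to 15 calls for the 4 kinds of comparison, the lone library of a group being assumed to vary like the others. Of 62 member differences that were not called, 12 changed sign with median-centring, 9 with spike-in scaling, 10 with edgeR, 12 with each DESeq2 fit, 1 with a pseudocount of 0.1 and 10 over the fits without 1 library. For the difference in Txnip response at 16 h of Ex-4 (0.08) the value was -0.094 with a pseudocount of 0.1, -0.053 median-centred, -0.28 spike-in scaled, -0.21 in edgeR, -0.22 in DESeq2 and -0.54 with ERCC size factors, and -0.091 to 0.24 without single libraries. At 1 h of FSK (0.09) it was -0.22, 0.10, -0.12, -0.26, -0.23 and -0.51 in the same order, and -0.00028 to 0.18 without single libraries. Arrdc3 after 16 h of FSK in WT (-0.08) was 0.16 median-centred, 0.24 spike-in scaled, 0.10 in edgeR, 0.13 in DESeq2 and 0.30 with ERCC size factors. Arrdc1 after 16 h of FSK in WT was 0.18 median-centred, 0.27 spike-in scaled and 0.32 with ERCC size factors, and in Med14 S983A 0.048 spike-in scaled and 0.0018 with the last of these. Arrdc2 after 16 h of Ex-4 in WT was 0.017 spike-in scaled and 0.069 with ERCC size factors. The causes were not tested. The main fit did not pair libraries by replicate number. Deviations of equal number correlated at -0.28 to 0.28 (median 0.0035) over 91 pairs of groups, 17 of them over 0.1. These correlations cannot show whether some groups were prepared together. The replicate block left 36, 2, 7 and 15 calls. No other transcript could be tried, as each member has 1 in the table.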
